A study of Mus musculus with 56 samples.

Results

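The genes described here are the 31 members of a list of PPAR-alpha targets and fatty acid oxidation enzymes, followed through the livers of mice given LNA gapmers. The list was taken by gene symbol, and a member was measured where the array held a probe set annotated to that symbol and no other. By this rule 29 of the 31 members were measured, among 18194 genes in all. Cyp4a10 and Cpt1b lay only on probe sets shared by several genes and are not reported. All 29 passed the filter on low values, an intensity of at least 32 on at least 3 arrays, in both studies of the series. Acot3 passed it in the single-dose study through exactly 3 arrays and was under 32 on the other 34. Since 2 of these 3 arrays are of NTS-1 mice at 8 h and 1 of a TS-2 mouse at 8 h, its single-dose values are given per mouse where shown, with no change or test.

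PPAR-alpha is a nuclear receptor that pairs with RXR and is activated by fatty acids. In hepatocytes it raises the transcription of genes that take fatty acids into mitochondria and peroxisomes and oxidise them, most of all during fasting. Long acyl chains enter mitochondria through the carnitine shuttle, are shortened by beta-oxidation, and leave the liver in part as ketone bodies. Cyp4a14, Vnn1, Pdk4, Angptl4 and the Acot thioesterases are widely used as readouts of the receptor in mouse liver.

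The series measured liver RNA of 56 male CD-1 mice, aged 6 to 8 weeks at the first injection and fed freely, with 1 mouse per Affymetrix array. LNA gapmers are antisense oligonucleotides with locked nucleic acids at both ends, and the submitters call NTS-1 non-toxic, TS-2 toxic and HTS-3 severely toxic. In the single-dose study, mice received vehicle (DPBS) or 25 mg/kg of 1 gapmer subcutaneously on day 1 and were sampled at 8, 16 or 72 h. The single-dose groups held 3 or 4 mice each, 37 in all, and HTS-3 was sampled at 8 and 16 h only, since the mice kept for 72 h died or were killed when moribund. In the 2-week study, vehicle (10 mice), NTS-1 (4 mice) or TS-2 (5 mice) at 25 mg/kg was injected on days 1, 4, 8 and 11 and liver was taken on day 14. All groups were of 1 strain and sex and carried no transgene. Per the labels, single-dose livers were picked from 10 dosed mice per group by how strongly they were scored for a mild enlargement of hepatocytes, so they are not a random draw of their groups. In whole liver RNA, fewer cells of a type and less RNA per cell cannot be told apart.

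The hepatocyte markers Alb, Apoa1 and Ttr were bright on every array. Of the single-dose groups, TS-2 at 72 h had the lowest mean sum of 7 measured hepatocyte markers. There the sum ranged from 286403 to 355812, against 332162 to 358889 in vehicle mice at 72 h. The sum differed less between gapmer and vehicle mice in the groups that follow. It ranged from 336016 to 366803 in vehicle mice at 16 h, from 337272 to 371734 in HTS-3 mice at 16 h, from 120662 to 133385 in vehicle mice at 2 weeks and from 120701 to 129803 in TS-2 mice at 2 weeks. The highest signal of Adipoq, Lep and Ucp1 on any single-dose array was 4.77, 4.56 and 4.65, at or next to the lowest value of those arrays, 4.56. Vehicle mouse 1 at 16 h stood apart, with 26922 in summed neutrophil markers against 224 in the lowest mouse of its group. One mouse labelled HTS-3 at 8 h, mouse 3, has 16 h in a second label and was kept at 8 h, the time in its title.

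Changes are differences of mean log2 intensity between groups, given with the standard error (SE) of a limma fit over all arrays of a study. Adjusted p-values are Benjamini-Hochberg values over all genes tested, 9134 in the single-dose and 13812 in the 2-week study, and a gene passed the test under 0.05. The labels call the samples of a group biological replicates.

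The largest change of a member past the test in the single-dose study was with sampling time, in vehicle mice. Pdk4, the kinase that shuts pyruvate dehydrogenase and so spares glucose while fat is burned, was low in every mouse at 8 h and higher in every mouse later. In vehicle mice its intensity was 35.4, 45.1 and 31.2 at 8 h, 312, 98.5 and 468 at 16 h, and 420, 362 and 283 at 72 h. The 8 h mice lay wholly below the later ones. Pdk4 rose by 2.72 ± 0.59 (SE) on the log2 scale from 8 to 16 h (limma, adjusted p = 0.00837) and by 3.25 ± 0.59 from 8 to 72 h (limma, adjusted p = 0.00145).

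The gapmer groups, which are other mice, showed the same order of times. At 8 h the 3 NTS-1 mice had Pdk4 at 21.1, 34.9 and 19.4, the 4 TS-2 mice at 38.6, 27.7, 40.6 and 24.4, and the 3 HTS-3 mice at 36.6, 35.0 and 19.4. At 16 h the values were 213, 51.1, 259 and 202 with NTS-1, 282, 415 and 704 with TS-2, and 209, 235, 280 and 536 with HTS-3. At 72 h they were 210, 388 and 241 with NTS-1 and 288, 600, 432 and 85.2 with TS-2. Across all treatments the 13 mice sampled at 8 h lay between 19.4 and 45.1, and the 24 mice sampled later between 51.1 and 704. Of these values 6 were under 32, all at 8 h, among them the 31.2 of a vehicle mouse. The size of the difference between times is less sure at such low signal. Pdk4 was the only member whose 8 h mice were wholly apart from all later mice, as 0.723% of all genes tested were. The mouse labelled HTS-3 at 8 h with 16 h in its second label had Pdk4 at 19.4, the value of NTS-1 mouse 3 too and the lowest of all 37 mice.

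**Figure D1:**
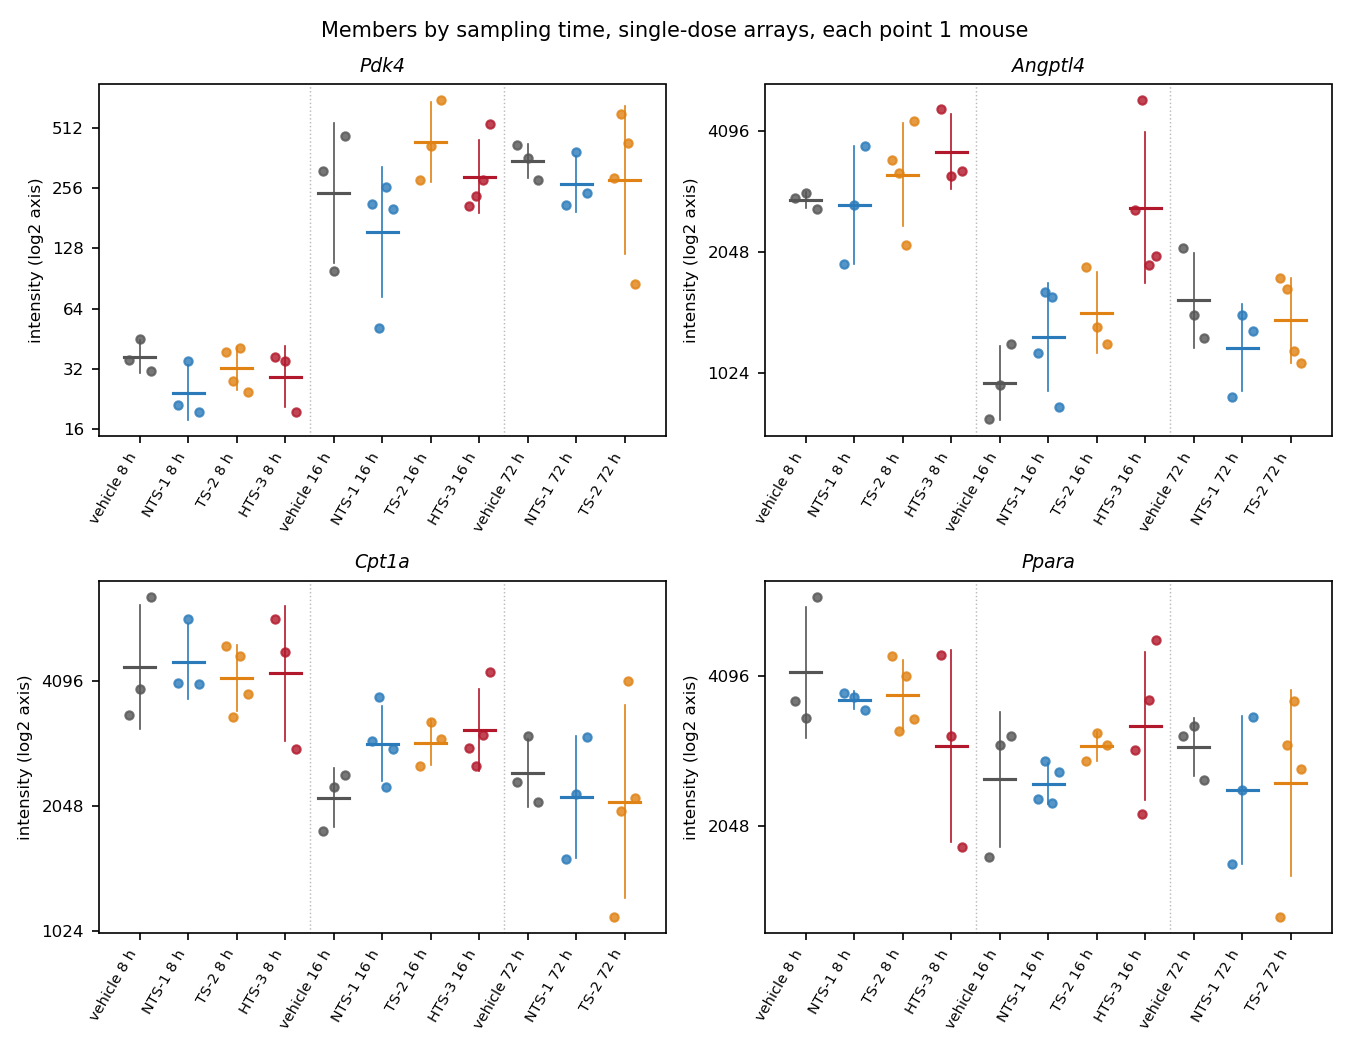
Intensity (log2 axis) of Pdk4, Angptl4, Cpt1a and Ppara in the single-dose study, each point 1 mouse, horizontal bars the mean of log2 values and vertical lines its SD, with dotted lines between 8, 16 and 72 h. All 13 mice at 8 h have Pdk4 at 45.1 or lower and all 24 later mice at 51.1 or higher. Angptl4 of HTS-3 and of TS-2 mice at 16 h lies above that of the 3 vehicle mice.

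The stretch before the Pdk4 start site is shown because Pdk4 carried the largest change of any member past a test, on the minus strand at chr6:5496279-5496528 in the RefSeq table of GRCm38.p6.
Pdk4: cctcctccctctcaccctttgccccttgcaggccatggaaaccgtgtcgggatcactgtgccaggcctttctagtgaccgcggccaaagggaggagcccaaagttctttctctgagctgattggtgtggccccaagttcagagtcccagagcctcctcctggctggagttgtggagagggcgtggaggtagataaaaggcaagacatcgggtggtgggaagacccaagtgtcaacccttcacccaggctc
The sequence reads 5′ to 3′ over 250 bases that end just before the first transcribed base. It was searched on both strands, with its first 50 transcribed bases, for a PPAR response element, written AGGTCANAGGTCA, a direct repeat with any base at N. Neither that sequence nor the looser AGGNCANAGGNCA was found in it, which says only that these letters are not in this window.

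Between 8 and 16 h 2 of 29 members passed in vehicle mice, 1 higher and 1 lower, where 2.11% of all genes tested passed, 1.3% higher and 0.81% lower. From 8 to 72 h it was 1 of 29, which was higher, with 1.93% of all genes, 1.39% higher and 0.536% lower, and from 16 to 72 h none of 29, with 0.0219% of all genes. At an unadjusted p under 0.05 there was 1 member (4.69% of all genes) in that limma fit, and the furthest values were Cyp4a14 (2.03), Angptl4 (0.68) and Pdk4 (0.53). Of all genes 119 were higher and 74 lower from 8 to 16 h, or 93 and 103 after quantile normalization. From 8 to 72 h 127 were higher and 49 lower, or 95 and 77 after quantile normalization. The second member of the 8 to 16 h comparison was Angptl4, a secreted inhibitor of lipoprotein lipase. It fell in vehicle mice from 2789, 2865 and 2623 at 8 h to 785, 953 and 1204 at 16 h, and stood at 2099, 1425 and 1246 at 72 h. The 16 h mice lay wholly below the other times. The change from 8 to 16 h fell by 1.51 ± 0.32 on the log2 scale (limma, adjusted p = 0.00758), and without vehicle mouse 1 at 16 h the adjusted p was 0.0512. Without vehicle mouse 3 at 16 h the adjusted p of Pdk4 over the same times was 0.0909, so either omission left 1 member past the test, and on the 2 groups alone it was 0.167.

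Of the members that did not pass from 8 to 16 h, Cpt1a, Ppara and Decr2 are given here, chosen after their values were seen. The other regulator, Creb3l3, changed by -0.11 and the shuttle enzyme Cpt2 by 0.23. Cpt1a, the outer-membrane enzyme that limits entry into the carnitine shuttle, was at 3394, 3910 and 6518 at 8 h, 1778, 2269 and 2434 at 16 h and 2343, 3018 and 2095 at 72 h. Its groups at 8 and 16 h did not overlap, yet the log2 change of -1.05 ± 0.33 had an adjusted p of 0.112 (limma). Ppara, the receptor itself, stood at 3642, 3366 and 5907 at 8 h against 1771, 2977 and 3105 at 16 h, a log2 change of -0.71 ± 0.32 with adjusted p = 0.370 (limma). Decr2, a peroxisomal 2,4-dienoyl-CoA reductase, changed by -0.57 ± 0.16 with adjusted p = 0.0583 (limma). In all, 10 of 29 members had groups that did not overlap between 8 and 16 h, where 16.1% of all genes tested did so. None of these members but Pdk4 and Angptl4 passed the test. At 16 h vehicle mouse 1, which had high neutrophil markers, was lowest of its group for every measured member but Pdk4 and Hadhb. The part of this mouse in the changes of Cpt1a, Ppara and Decr2 was not tested.

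Genes of the same pathway that are not members were read from a list of 40, of which 31 were tested in the single-dose study. From 8 to 16 h in vehicle mice 1 of the 31 rose and 3 fell, beside 1.3% and 0.81% of all genes. Ppard, which encodes the receptor PPAR-delta, rose by 2.18 ± 0.41 (limma, adjusted p = 0.00208). Ppargc1b, a coactivator of mitochondrial genes, fell by 1.70 ± 0.39 (limma, adjusted p = 0.0134). Acot12 fell by 0.70 ± 0.18 (adjusted p = 0.0285) and Eci2, a peroxisomal enoyl-CoA isomerase, fell by 0.66 ± 0.15 (adjusted p = 0.0122). Clock genes moved with the same comparison: of 12 tested, 4 were higher and 4 lower at 16 h, with Arntl at a log2 change of 5.41 and Dbp at -6.54. No clock time of injection was at hand, and the part of the clock genes in these member changes was not tested. Of 9 genes that respond to feeding 1 passed, Ppp1r3c, higher by 1.94 ± 0.39 (limma, adjusted p = 0.00461), with 8 of 9 above 0 and a median of 0.77, and their part was not tested either. S100a8, a neutrophil marker, was also higher at 16 h than at 8 h by 4.05 ± 1.03 (limma, adjusted p = 0.0329), in a group that holds vehicle mouse 1. From 8 to 72 h 1 of the 31 fell, Ppargc1b, by 1.84 ± 0.39 (limma, adjusted p = 0.00643), beside 0.536% of all genes.

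A single dose of NTS-1 or TS-2 moved no member past the test at 8, 16 or 72 h, and neither did HTS-3 at 8 h (0 of 29 in each of 7 limma comparisons). Of all genes tested, 0.876%, 0.263% and 0% passed with NTS-1 at 8, 16 and 72 h, and 0%, 0.0109% and 0.241% with TS-2. With HTS-3 at 8 h it was 0.887%. At an unadjusted p under 0.05 there were 3, 0 and 0 members with NTS-1 at the 3 times, beside 4.38%, 3.96% and 2.46% of all genes, with Acot3 among the 3. With TS-2 there were 0, 0 and 1, beside 4.17%, 4.67% and 4.37%, and with HTS-3 at 8 h 0, beside 11.2%. At 8 h with TS-2 27 of 29 members changed by less than 0.5 on the log2 scale, as 93.7% of all genes did. With HTS-3 at 8 h it was 29 of 29, beside 85.2% of all genes. A p above the threshold does not show that values were alike: for Cpt1a the 95% interval of the TS-2 change at 8 h ran from -0.73 to 0.55.

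The members furthest from vehicle with NTS-1 at 8 h were Vnn1, Acot4 and Cyp4a14 (0.75), and none passed. Vnn1, an ectoenzyme that releases cysteamine from pantetheine, was at 2646, 2199 and 1159 with NTS-1 against 443, 848 and 879 with vehicle. The groups did not overlap, and the log2 change was 1.45 ± 0.59 with an adjusted p of 0.759 (limma). Acot4, a peroxisomal thioesterase, was at 388, 129 and 254 with NTS-1 against 95.7, 92.9 and 116, a log2 change of 1.21 ± 0.41 with an adjusted p of 0.408 (limma). Acot3, its neighbour, was at 201, 6.65 and 107 with NTS-1 against 14.3, 5.17 and 5.22 with vehicle, and NTS-1 mouse 2 lay with the vehicle mice. Leaving out that mouse gave a count of 1, Acot3, which is no support, since the remaining 2 mice are those through which it passed the filter. In this comparison 6 of 29 members had groups that did not overlap, beside 9.46% of all genes. Interferon-response genes were higher in the same mice, 6 of 6 tested, where 0.876% of all genes passed, with Ifit1 at a log2 change of 7.32. Their part in the thioesterase and Vnn1 values was not tested.

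With NTS-1 at 16 h the furthest members were Pdk4 (log2 change -0.65), Cyp4a14 (0.60) and Acot4 (-0.53), and at 72 h Cyp4a14 (-1.38), Acot1 (-0.80) and Acot4 (-0.63). With TS-2 they were Acot4 (0.53), Eci1 (-0.26) and Pex11a (0.26) at 8 h, Cyp4a14 (1.27), Vnn1 (-1.04) and Pdk4 (0.84) at 16 h, and Cyp4a14 (0.59), Decr2 (-0.34) and Vnn1 (0.33) at 72 h. Vnn1 with TS-2 at 16 h was at 187, 154 and 179 against 236, 339 and 559 in vehicle mice, without overlap, as for 3 of 29 members and 12.9% of all genes there. With HTS-3 at 8 h the furthest were Ppara (-0.49), Vnn1 (0.43) and Acot4 (-0.42).

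HTS-3 at 16 h was the only single-dose gapmer group with a member past the test, and it was Angptl4. Its intensity was 2605, 4878, 1904 and 2003 with HTS-3 against 785, 953 and 1204 with vehicle. Every HTS-3 mouse lay above every vehicle mouse, and in the range of the 8 h mice of all treatments, 1912 to 4652, lay 2 of the 4, with 1 above it and 1 just below. The rise was 1.45 ± 0.30 (limma, adjusted p = 0.000949), or 2.73-fold. Fitted on the 2 groups alone the adjusted p was 0.0803, and the call was kept on leaving out any 1 mouse. So 1 of 29 members passed, where 16.9% of all genes did. The median member changed by 0.20 and the median gene by 0.07. Angptl4 also lay wholly above vehicle, without passing, with TS-2 at 16 h (1876, 1328 and 1210) and with HTS-3 at 8 h. At 8 h HTS-3 mice had 4652, 3161 and 3261 against 2789, 2865 and 2623 in vehicle mice. In these comparisons 12.9% and 12.5% of all genes did not overlap. NTS-1 mice at 16 h, at 1148, 1627, 1585 and 840, overlapped with vehicle. Vehicle mouse 1 at 16 h, with the high neutrophil markers, was lowest of its group for every measured member but Pdk4 and Hadhb. The part of this mouse in the median was not tested.

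The other members furthest from vehicle with HTS-3 at 16 h were the omega-hydroxylase Cyp4a14 (log2 change -2.10 ± 2.13) and Acot4 (-1.03 ± 0.39, adjusted p = 0.0644). Cpt2, the inner-membrane enzyme of the carnitine shuttle, did not pass, at 7008, 7573, 7567 and 12535 against 3474, 6283 and 6215 (log2 change 0.71 ± 0.28, limma, adjusted p = 0.0780). Acads, the short-chain acyl-CoA dehydrogenase, did not pass either, at 3108, 3611, 2675 and 2865 against 2377, 2414 and 2628 (0.30 ± 0.12, limma, adjusted p = 0.0857). HTS-3 mouse 4, the highest for Cpt2 and Hadha, had the lowest log2 ratio of 3′ to 5′ signal, a sign of RNA quality, of the 37 single-dose arrays, at 1.15 for Actb and -0.12 for Gapdh. Vehicle mouse 3 at 8 h had the lowest Gapdh ratio of its group (-0.06) and the highest Cpt2, Hadha, Cpt1a and Ppara, and TS-2 mouse 1 at 72 h the highest ratio (0.15) and the lowest values of these 4. NTS-1 mouse 3 at 72 h, with the highest ratio of its group (0.19), was instead highest for Cpt2, Cpt1a and Ppara. The part of RNA quality in these values was not tested. The groups of 6 members did not overlap, among 23.5% of all genes. Without vehicle mouse 1 at 16 h 2 members passed, and without HTS-3 mouse 3 it was 3. Of 31 other pathway genes, 2 rose and 1 fell, with Fgf21 counted among the 2, where 16.9% of all genes passed. Here and below, a count near or under that share is no result about its list. Fgf21, a fasting hormone of the liver, was higher by 1.47 ± 0.45, from a geometric mean of 17.8, which is below 32, to 49.3. Whether Fgf21 passed the filter on low values only through HTS-3 mice was not tested, so no p-value is given. Mlycd, malonyl-CoA decarboxylase, rose by 0.35 ± 0.11 (adjusted p = 0.0343), and Acsl5, an acyl-CoA synthetase, fell by 0.78 ± 0.24 (adjusted p = 0.0259). Of 6 macrophage markers 1 fell, and 1 of 2 neutrophil markers, against a vehicle group that holds the mouse with high neutrophil markers. Endothelial markers fell in the same comparison, 3 of 5 tested, with their sum between 5328 and 8740 with HTS-3 and between 8092 and 9755 with vehicle, and their part in the member values was not tested. Of 9 genes that respond to feeding 1 fell, Pnpla3, by 2.42 ± 0.75 (limma, adjusted p = 0.0250), and its part was not tested. The Angptl4 effect of HTS-3 was 1.05 ± 0.44 larger at 16 h than at 8 h, with adjusted p = 0.234 (limma), so a difference between the times was not shown.

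**Figure D2:**
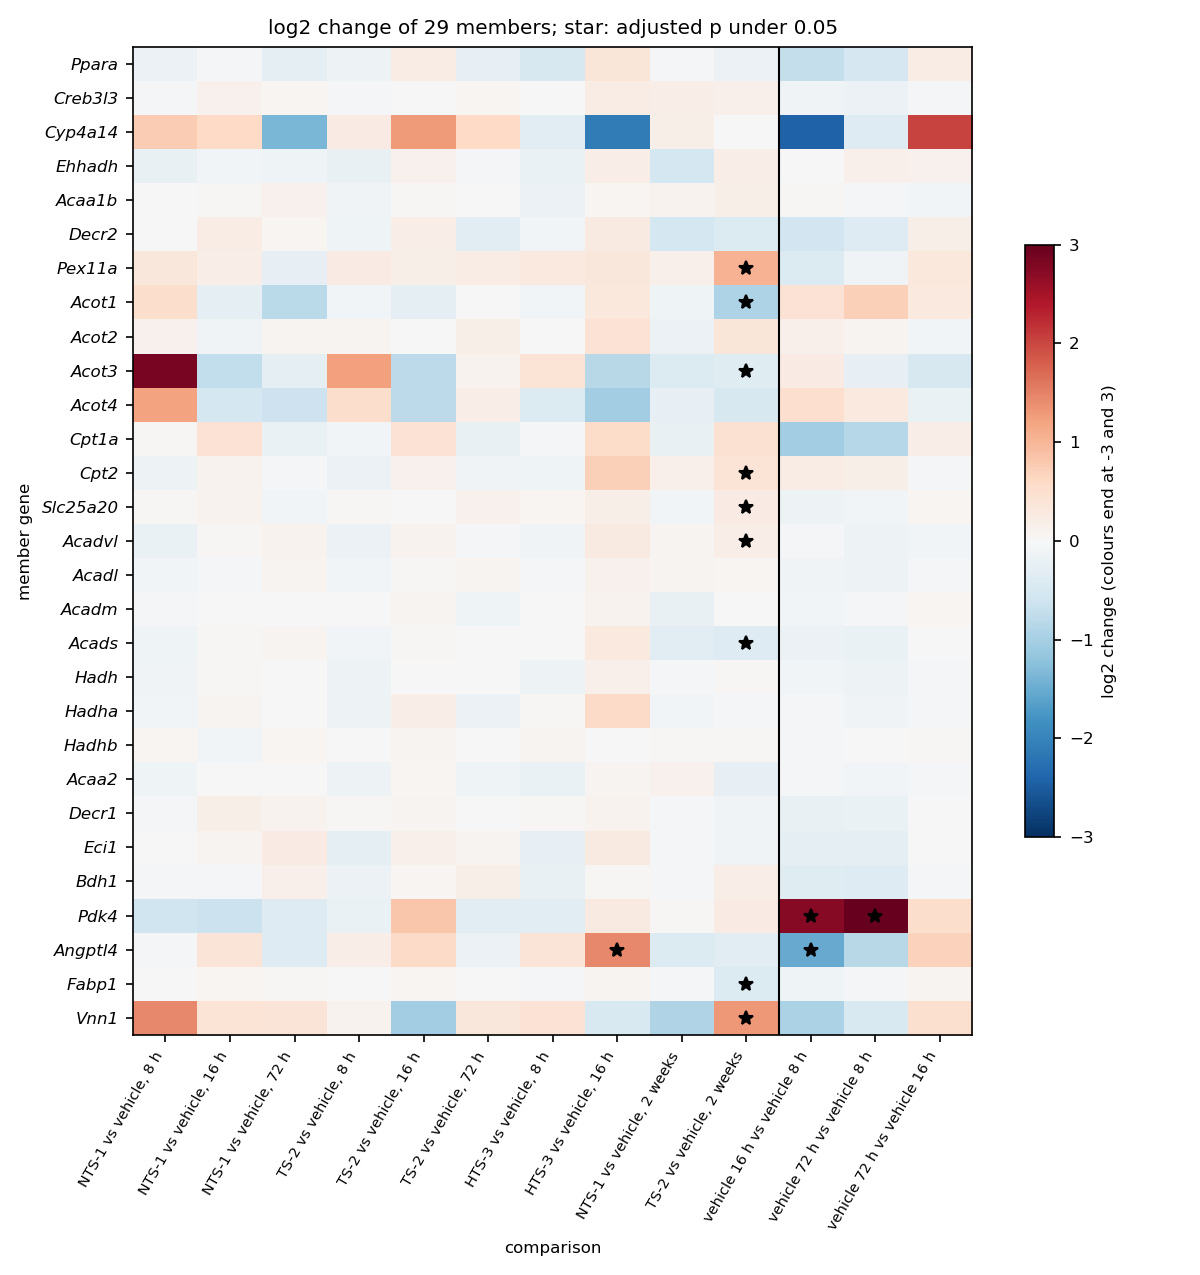
Log2 change of the 29 measured members (rows, grouped by role from regulators at the top to other targets at the bottom) in 10 comparisons of a gapmer with vehicle and 3 between vehicle times (columns), red for higher and blue for lower in the first-named group, stars for adjusted p under 0.05. Stars stand at Angptl4 for HTS-3 at 16 h, at 9 members for TS-2 at 2 weeks, and at Pdk4 and Angptl4 between vehicle times.

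After 2 weeks of TS-2 9 of 29 members passed, 5 higher and 4 lower, where 38.9% of all genes passed, 23.8% higher and 15.1% lower. The count lies below the share of all genes and is no result about the members as a group. The median member changed by 0.03. After 2 weeks of NTS-1 none of 29 passed, where 5.43% of all genes did, with 4 members at an unadjusted p under 0.05 beside 20.8% of all genes (limma). Its furthest members were Vnn1 (-0.91), Decr2 (-0.53) and Ehhadh (-0.53), and without vehicle mouse 2 Ehhadh alone passed, at -0.61 with an adjusted p of 0.0395. Of other pathway genes, Ppard rose with NTS-1 by 0.91 ± 0.23 (limma, adjusted p = 0.0307).

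Of the regulators, neither passed. Ppara had a lowest, median and highest value of 372, 529 and 1164 in the 10 vehicle mice and ranged from 268 to 883 in the TS-2 mice. The groups of the receptor's own message overlapped. Creb3l3, a hepatocyte transcription factor that acts with PPAR-alpha in fasting, changed by 0.15 ± 0.07 with adjusted p = 0.0859 (limma).

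Pex11a, a membrane protein that drives the division of peroxisomes, had the lowest adjusted p of the members. Its lowest, median and highest values were 762, 1158 and 1615 with vehicle. NTS-1 mice stood at 1644, 1192, 1087 and 1348, and TS-2 mice at 2809, 2516, 1294, 2493 and 3477. TS-2 mouse 3 lay within the vehicle range and the other 4 above it. Pex11a rose by 1.04 ± 0.20 with TS-2 (limma, adjusted p = 0.000388), or 2.06-fold, and a second probe set gave 0.66 ± 0.16. The other peroxisomal members Ehhadh, Acaa1b and Decr2 did not pass with TS-2.

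The Pex11a promoter, at chr7:79743132-79743381 on the minus strand of GRCm38.p6, is shown beside that of Fabp1, at chr6:71199629-71199878 on the plus strand, because the pair moved in opposite directions and 1 of them holds the element searched for.
Pex11a: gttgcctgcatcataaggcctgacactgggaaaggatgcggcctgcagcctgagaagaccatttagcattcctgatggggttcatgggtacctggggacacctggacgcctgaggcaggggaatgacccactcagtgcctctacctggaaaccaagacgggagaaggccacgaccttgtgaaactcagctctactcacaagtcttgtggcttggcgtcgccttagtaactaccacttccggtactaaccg
Fabp1: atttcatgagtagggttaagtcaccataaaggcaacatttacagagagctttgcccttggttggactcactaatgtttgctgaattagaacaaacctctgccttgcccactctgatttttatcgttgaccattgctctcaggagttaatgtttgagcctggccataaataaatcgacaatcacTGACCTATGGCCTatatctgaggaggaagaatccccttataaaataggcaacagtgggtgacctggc
Capitals mark a match to AGGNCANAGGNCA read on the opposite strand, from base -67 to base -55 before the start. RefSeq's promoter table held 24 of the 31 members in 27 windows, each running 250 bases upstream and 50 downstream of a start. Of these windows only that of Fabp1 held the looser element, against 125 of 32851 promoters in the table, or 0.3805%. The strict AGGTCANAGGTCA was in 13 of 32851, or 0.03957%, and in no member searched. The other 7 members, Vnn1, Angptl4 and Cyp4a14 among them, were not searched.

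Fabp1, the fatty acid binding protein of hepatocytes, was among the 4 members that fell. Its vehicle values had a lowest, median and highest of 14951, 18260 and 19708. NTS-1 mice were at 18594, 15908, 16528 and 19970, and TS-2 mice at 18584, 12924, 16019, 12072 and 9664. TS-2 mice 2, 4 and 5 lay below every vehicle mouse, while mice 1 and 3 lay within the vehicle range. Fabp1 fell by 0.42 ± 0.11 with TS-2 (limma, adjusted p = 0.00664). In the single-dose study Fabp1 ranked between 1 and 4 among 45101 probe sets on each array. It took 30 distinct values on 37 arrays, and its values there ran from 115038 to 141685. Whether the top of the signal scale bounds that spread was not tested.

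Of the 3 measured members of the carnitine shuttle 2 passed with TS-2, both higher, and 1 of these calls was fragile. Cpt2 had a lowest, median and highest of 2260, 2451 and 3487 with vehicle and stood at 3341, 3736, 2954, 3619 and 3488 with TS-2. Vehicle mice 5 and 7, at 3072 and 3487, lay within the TS-2 range. Mouse 7 had the lowest log2 ratio of 3′ to 5′ Gapdh signal of its group (0.56). It was also highest of its group for Cpt2, Hadha, Cpt1a and Ppara, and the part of RNA quality was not tested. Cpt2 rose by 0.40 ± 0.09 (limma, adjusted p = 0.00191), and its dimmer probe set by 0.25 ± 0.10 (adjusted p = 0.0623 over all probe sets). Slc25a20, the carrier that swaps acylcarnitine for carnitine, had vehicle values of 3379, 3614 and 4218 (lowest, median and highest) against 5082, 4386, 3658, 4505 and 4230 with TS-2. It rose by 0.25 ± 0.08 (limma, adjusted p = 0.0194), and without TS-2 mouse 1 by 0.19 with an adjusted p of 0.0721. Its second probe set changed by 0.01 ± 0.12, and the mean of both gave 0.13 with an adjusted p of 0.241. Cpt1a did not pass, though its 5 TS-2 mice were tight at 2290, 2619, 2092, 2317 and 2280 against a lowest, median and highest of 928, 1665 and 3858 with vehicle.

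In mitochondrial beta-oxidation 1 of 10 members rose and 1 fell with TS-2. Acads fell: its vehicle values had a lowest, median and highest of 1843, 2104 and 3004, NTS-1 mice were at 1839, 1550, 1772 and 1731, and TS-2 mice at 1811, 1775, 1711, 1475 and 1418. Every mouse given a gapmer lay below every vehicle mouse. The fall was 0.40 on the log2 scale with an SE of 0.10 (limma, adjusted p = 0.00344) for TS-2, and the NTS-1 change of -0.32 ± 0.11 did not pass (limma, adjusted p = 0.0835). Acads was the only member without overlap in either comparison, where 11.9% of all genes did not overlap with TS-2 and 3.21% with NTS-1. Both comparisons share the vehicle mice. Acadvl, the very-long-chain dehydrogenase, rose by 0.21 ± 0.06 (limma, adjusted p = 0.0135) from a vehicle median of 5937 to 6554, 7367, 7004, 6046 and 7273. The trifunctional protein subunits Hadha and Hadhb, with Acadl, Acadm, Hadh, Decr1 and Eci1, did not pass, and Acaa2, the mitochondrial thiolase, missed with -0.24 ± 0.10 (limma, adjusted p = 0.0516).

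Of the 4 thioesterases, which release free fatty acids from acyl-CoA, 2 fell and none rose past the test, with a median log2 change of -0.42. Acot1, the cytosolic enzyme, had a lowest, median and highest of 207, 362 and 477 with vehicle and stood at 348, 157, 160, 246 and 87.4 with TS-2. Of the TS-2 mice 3 lay below all vehicle mice. Acot1 fell by 0.93 ± 0.24 (limma, adjusted p = 0.00468). Acot3 fell by 0.37 ± 0.14 (limma, adjusted p = 0.0382), with 90.1, 60.5, 52.3, 70.3 and 48.1 against a vehicle range of 62.5 to 110. This call was lost on leaving out any 1 of 9 mice, with adjusted p between 0.0514 and 0.148. Acot2, the mitochondrial form, was at 397, 573, 252, 855 and 462 against a vehicle range of 282 to 430, and did not pass. Acot4 changed by -0.47 ± 0.21 and did not pass either (limma, adjusted p = 0.0809). The 4 genes lie side by side on chromosome 12 within 72.5 kb, in the order Acot2, Acot1, Acot4 and Acot3.

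Vnn1 had the largest change of any member against vehicle at 2 weeks, with the highest adjusted p of the 9 that passed. Its vehicle mice had a median of 225 and a highest of 871, NTS-1 mice were at 441, 75.1, 183 and 73.2, and TS-2 mice at 2022, 585, 287, 802 and 505. Only TS-2 mouse 1 lay above every vehicle mouse. Vnn1 rose by 1.30 ± 0.50 with TS-2 (limma, adjusted p = 0.0449), and the call was lost on leaving out any 1 of 11 mice, with adjusted p from 0.0549 to 0.156. A second Vnn1 probe set rose by 1.54 ± 0.49 (adjusted p = 0.0190 over all probe sets). Bdh1, the mitochondrial enzyme that makes the ketone body 3-hydroxybutyrate, did not pass (0.20 ± 0.11, limma, adjusted p = 0.150). Pdk4 and Angptl4, the members that moved with time and with HTS-3, did not pass after 2 weeks. Pdk4 was at 183, 120, 255, 248 and 181 with TS-2 against a vehicle range of 99.5 to 404. Angptl4 was at 661, 1152, 452, 1132 and 1539 against a vehicle range of 589 to 1735.

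**Figure D3:**
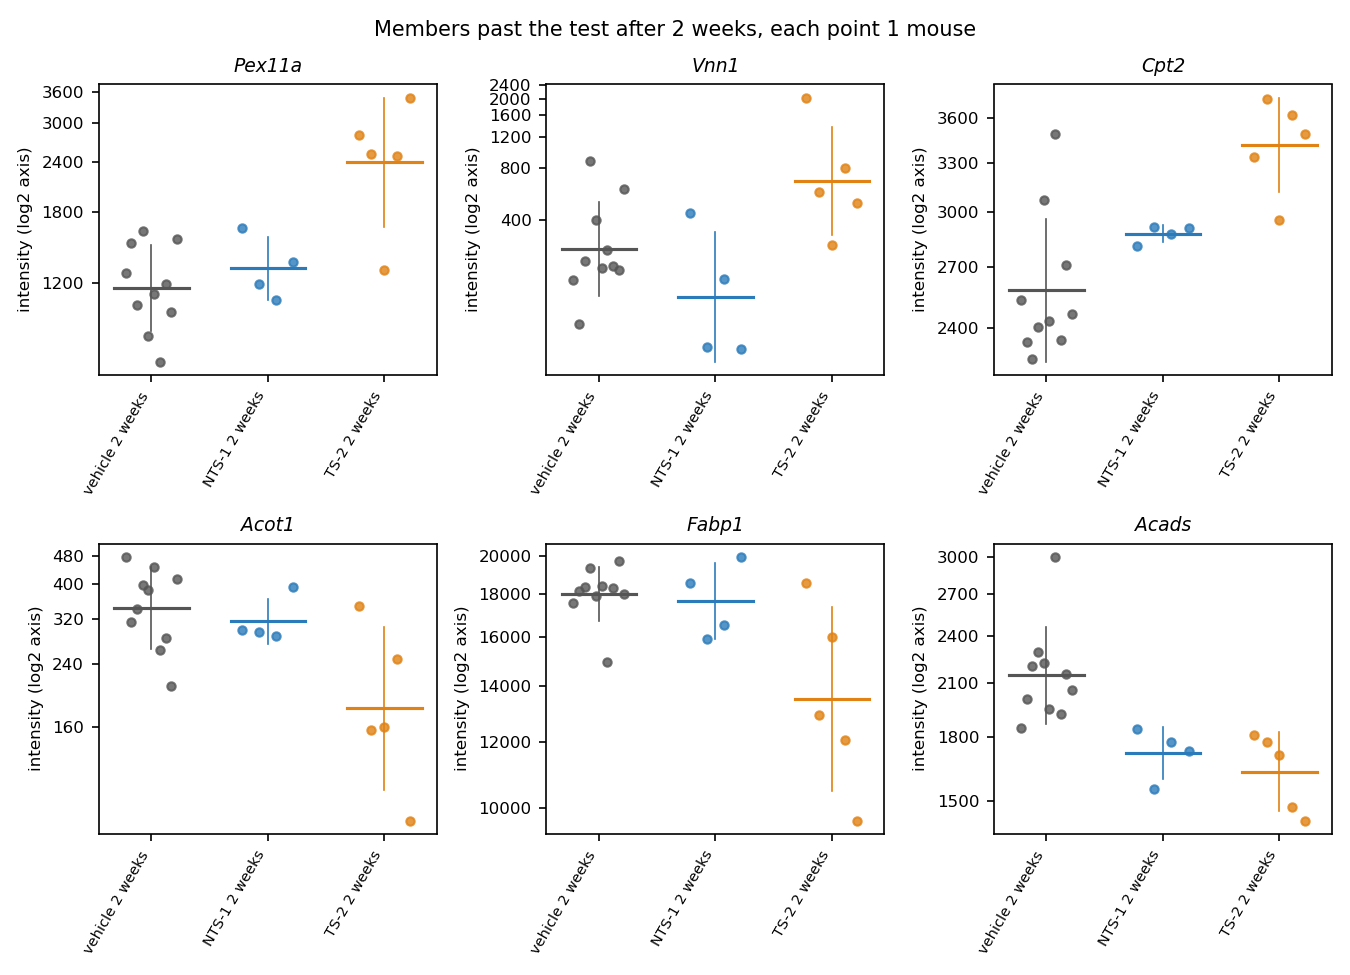
Intensity (log2 axis) of 6 members that passed the test with TS-2 at 2 weeks, each point 1 mouse, horizontal bars the mean of log2 values and vertical lines its SD, for 10 vehicle, 4 NTS-1 and 5 TS-2 mice. Only for Acads do all TS-2 mice, at 1811 or lower, lie apart from all vehicle mice, at 1843 or higher.

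Against vehicle mice 6 to 10 alone, 3 of the 9 members still passed with TS-2: Pex11a, Cpt2 and Acads, all 3 also past the test under each alternative listed in the methods. The 2 sets of 5 vehicle mice were not at 1 level for every member. Angptl4 was 589, 589, 1192, 912 and 1150 in mice 1 to 5 and 1322, 1735, 1122, 1608 and 1719 in mice 6 to 10. Against vehicle mice 1 to 5 alone, Acadvl (adjusted p = 0.0532, limma), Slc25a20 (0.0794), Vnn1 (0.130) and Acot3 (0.182) were lost and the other 5 were kept. Nothing in the labels says whether the sets were run apart.

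Other pathway genes moved in both directions with TS-2 at 2 weeks: of 33 tested 4 rose and 8 fell. Of all genes 38.9% passed, 23.8% higher and 15.1% lower, so these counts are no result about the list. Cidec is counted among the 4 and Abcd2 among the 8, though both were dim. Cidec, a lipid droplet protein, was higher by 2.44 ± 0.38, and its vehicle mean of 13.3 was below 32. Whether Cidec passed the filter on low values only through TS-2 mice was not tested, so no p-value is given. Cd36, a fatty acid transporter, rose by 1.42 ± 0.43 (limma, adjusted p = 0.0137). The acyl-CoA dehydrogenase Acad11 fell by 1.87 ± 0.35 (limma, adjusted p = 0.000313), and Fabp2 fell by 1.61 ± 0.26 (limma, adjusted p = 7.2e-05). Abcd2, a peroxisomal transporter, fell by 0.90 ± 0.25 between means of 30.2 and 16.1, both below 32. Crat, carnitine acetyltransferase, rose by 0.83 ± 0.15 (limma, adjusted p = 0.000297). The remaining 6 of these genes, 1 higher and 5 lower, changed by less.

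Some markers of other cells and states also passed in the same comparison, where 38.9% of all genes did, 23.8% higher and 15.1% lower. A count near these shares is no result about its list. Of 6 interferon-response genes 6 rose, as did 6 of 10 acute-phase genes, 2 of 7 macrophage and 3 of 6 stellate and fibroblast markers, while 4 of 6 endothelial markers fell. Of 7 hepatocyte markers 1 rose and 1 fell, and the 1 tested brown fat and the 1 tested pancreas marker, Elovl3 and Cela1, fell. The summed macrophage markers ran from 2252 to 15932 with TS-2 and from 1722 to 6726 with vehicle, and the summed endothelial markers from 988 to 2426 against 2346 to 4019. Summed stellate and fibroblast markers ran from 6046 to 11872 with TS-2 and from 4365 to 7526 with vehicle. Clock genes also differed, with 5 of 16 higher and 3 lower. Of 9 genes that respond to feeding 2 fell, G6pc by 1.74 ± 0.55 (limma, adjusted p = 0.0161) and Ppp1r3c by 1.03 ± 0.29 (adjusted p = 0.00753). Their part in the member changes was not tested.

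The gapmers were compared directly in 8 pairs of groups at 25 mg/kg and matched times, and 8 of 232 member tests passed. At 2 weeks 5 of 29 members differed between TS-2 and NTS-1, where 22% of all genes did. Vnn1 was higher with TS-2 by 2.21 ± 0.61 (limma, adjusted p = 0.0150), Pex11a by 0.88 ± 0.25 (adjusted p = 0.0157) and Slc25a20 by 0.32 ± 0.10 (adjusted p = 0.0263). Ehhadh, the peroxisomal bifunctional enzyme, was at 4455, 6082, 3927, 7685 and 3610 with TS-2 and at 2660, 3975, 2903 and 2551 with NTS-1, higher by 0.73 ± 0.23 (limma, adjusted p = 0.0269). It had not differed from vehicle in either group by the test. Acaa2 was lower with TS-2 by a log2 change of -0.37 ± 0.12 (limma, adjusted p = 0.0294), at 11248, 9364, 10379, 6754 and 7482 against 11851, 11008, 11438 and 11707. The calls of Ehhadh, Acaa2 and Slc25a20 were each lost on leaving out any 1 of 5 mice, with adjusted p from 0.0523 to 0.0827, and that of Vnn1 on leaving out NTS-1 mouse 2 or 4 (0.0501 and 0.0608). Leaving out NTS-1 mouse 3 or 4 of the 2-week group lowered the count over all 8 pairs to 5 and 4. Cpt1a and Cpt2 were the 2 members without overlap, among 16.5% of all genes, and neither passed. Cpt1a was at 2092 or higher with TS-2 and 1873 or lower with NTS-1 (log2 change 0.68 ± 0.26, limma, adjusted p = 0.0681). Its 95% interval ran from 0.13 to 1.23. The log2 ratio of 3′ to 5′ Gapdh signal ran from 0.62 to 0.76 with TS-2 and from 0.69 to 0.97 with NTS-1. Its part in these values was not tested. Vehicle mice 1 to 5 had Cpt1a at 1686, 928, 1385, 1347 and 1442. Vehicle mice 6 to 10 had it at 1643, 3858, 1773, 2254 and 1855. In the listing of samples NTS-1 follows vehicle mice 1 to 5 and TS-2 follows vehicle mice 6 to 10. The part of this order in the differences between TS-2 and NTS-1 was not tested. Of 9 genes that respond to feeding 3 were lower with TS-2 than with NTS-1, and their part was not tested. Of other pathway genes Cidec (2.47), Cd36 (2.18), Crot (0.67) and Crat (0.58) were higher with TS-2 than with NTS-1, and Acad11 (-2.03) lower. Whether Cidec passed the filter on low values only through TS-2 mice was not tested.

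After a single dose, TS-2 and NTS-1 differed in no member by the limma test at 8, 16 or 72 h, where 0.865%, 0.493% and 0.263% of all genes did. At an unadjusted p under 0.05 there were 2, 2 and 5 members, beside 4.05%, 5.3% and 6.78% of all genes, with Acot3 among the first 2. The furthest members were Vnn1 (-1.33), Acot4 (-0.68) and Acot1 (-0.60) at 8 h, Pdk4 (1.49), Vnn1 (-1.44) and Cyp4a14 (0.67) at 16 h, and Cyp4a14 (1.97), Acot4 (0.82) and Acot1 (0.82) at 72 h. HTS-3 and TS-2 differed in no member by the limma test at 8 h (0.526% of all genes) or 16 h (13% of all genes), with 1 and 4 members at an unadjusted p under 0.05 beside 6.32% and 24.4% of all genes. Here the furthest were Acot4 (-0.94), Cyp4a14 (-0.57) and Ppara (-0.34) at 8 h, and Cyp4a14 (-3.37), Angptl4 (0.87) and Vnn1 (0.59) at 16 h. HTS-3 and NTS-1 differed at 8 h in Acot4 alone, with 1.16% of all genes past the test. HTS-3 mice had Acot4 at 61.9, 116 and 60.1 and NTS-1 mice at 388, 129 and 254, without overlap, as for 2 of 29 members and 10.6% of all genes, a log2 change of -1.62 ± 0.41 (limma, adjusted p = 0.0446) that was lost without NTS-1 mouse 1 or 3 or HTS-3 mouse 1 or 3. At 16 h HTS-3 and NTS-1 differed in Angptl4, higher by 1.07 ± 0.28 (limma, adjusted p = 0.00640), and in Acot2, higher by 0.54 ± 0.19 (limma, adjusted p = 0.0361), where 21.4% of all genes differed. NTS-1 mice had Angptl4 at 1148, 1627, 1585 and 840, all below the 4 HTS-3 mice. Acot2 was at 197, 171, 197 and 238 with HTS-3 against 141, 133, 134 and 141. The Acot2 call was lost without any 1 of 7 mice, with adjusted p from 0.0501 to 0.137. TS-2 mice at 16 h had Angptl4 at 1876, 1328 and 1210, all below the HTS-3 mice, and the difference of 0.87 ± 0.30 missed the threshold (limma, adjusted p = 0.0564). It passed in 7 of 14 alternatives, with adjusted p from 0.0129 to 0.233.

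Whether a gapmer's effect differed between times was tested for NTS-1 (16 against 8 h), HTS-3 (16 against 8 h) and TS-2 (72 against 8 h). No member passed in any of the 3 limma tests, where 0.0766%, 3.23% and 0.0766% of all genes did, and 2, 3 and 0 members had an unadjusted p under 0.05, beside 2.95%, 15% and 3.14% of all genes. Acot3 was among the 2 for NTS-1. The furthest values were Acot4 (-1.74), Vnn1 (-1.04) and Acot1 (-0.80) for NTS-1, Cyp4a14 (-1.77), Angptl4 (1.05) and Vnn1 (-0.88) for HTS-3, and Angptl4 (-0.37), Cyp4a14 (0.36) and Eci1 (0.35) for TS-2. Leaving out NTS-1 mouse 2 at 8 h gave a count of 1, Acot3, which is no support for the same reason as above. Of other pathway genes 1 passed, Plin2 for HTS-3, whose effect was 0.88 ± 0.24 higher at 16 h (limma, adjusted p = 0.0352).

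Members differed widely in how much mice of 1 group varied. Cyp4a14, which omega-hydroxylates fatty acids, had an SD between mice of 2.92 on the log2 scale in the single-dose study and 1.36 in the 2-week study, against medians over all genes of 0.30 and 0.22. It stood at percentile 99.99 of all genes tested by this SD in the single-dose and 99.86 in the 2-week study. With HTS-3 at 16 h its values were 14.4, 4303, 13.9 and 7.80, so mouse 2 was bright and the other 3 below 32. NTS-1 mice at 16 h had 932, 15.4, 876 and 968, and here mouse 2 was the dim one. Vehicle mice had 733, 1625 and 1361 at 8 h, 8.17, 3396 and 378 at 16 h, and 3388, 1325 and 159 at 72 h.

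The other single-dose groups spanned 10.9-fold to 68.3-fold, less than the 416-fold of vehicle and the 552-fold of HTS-3 mice at 16 h. NTS-1 mice had Cyp4a14 at 6088, 7314 and 174 at 8 h and at 193, 94.4 and 2238 at 72 h. TS-2 mice had 258, 2811, 1919 and 2626 at 8 h, 2324, 1851 and 34.0 at 16 h, and 1019, 8120, 2806 and 142 at 72 h. HTS-3 mice at 8 h had 3280, 160 and 1543. Bright and dim mice thus occurred in vehicle and in gapmer groups, and no comparison of Cyp4a14 passed the test. In all, 19 of 37 single-dose mice were over 1000 and 5 under 32. After 2 weeks its lowest, median and highest were 434, 1294 and 5508 with vehicle, and TS-2 mice stood at 3060, 2574, 177, 3217 and 890. The NTS-1 mice were the tightest group, at 1266, 1893, 1713 and 1119, or 1.69-fold.

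**Figure D4:**
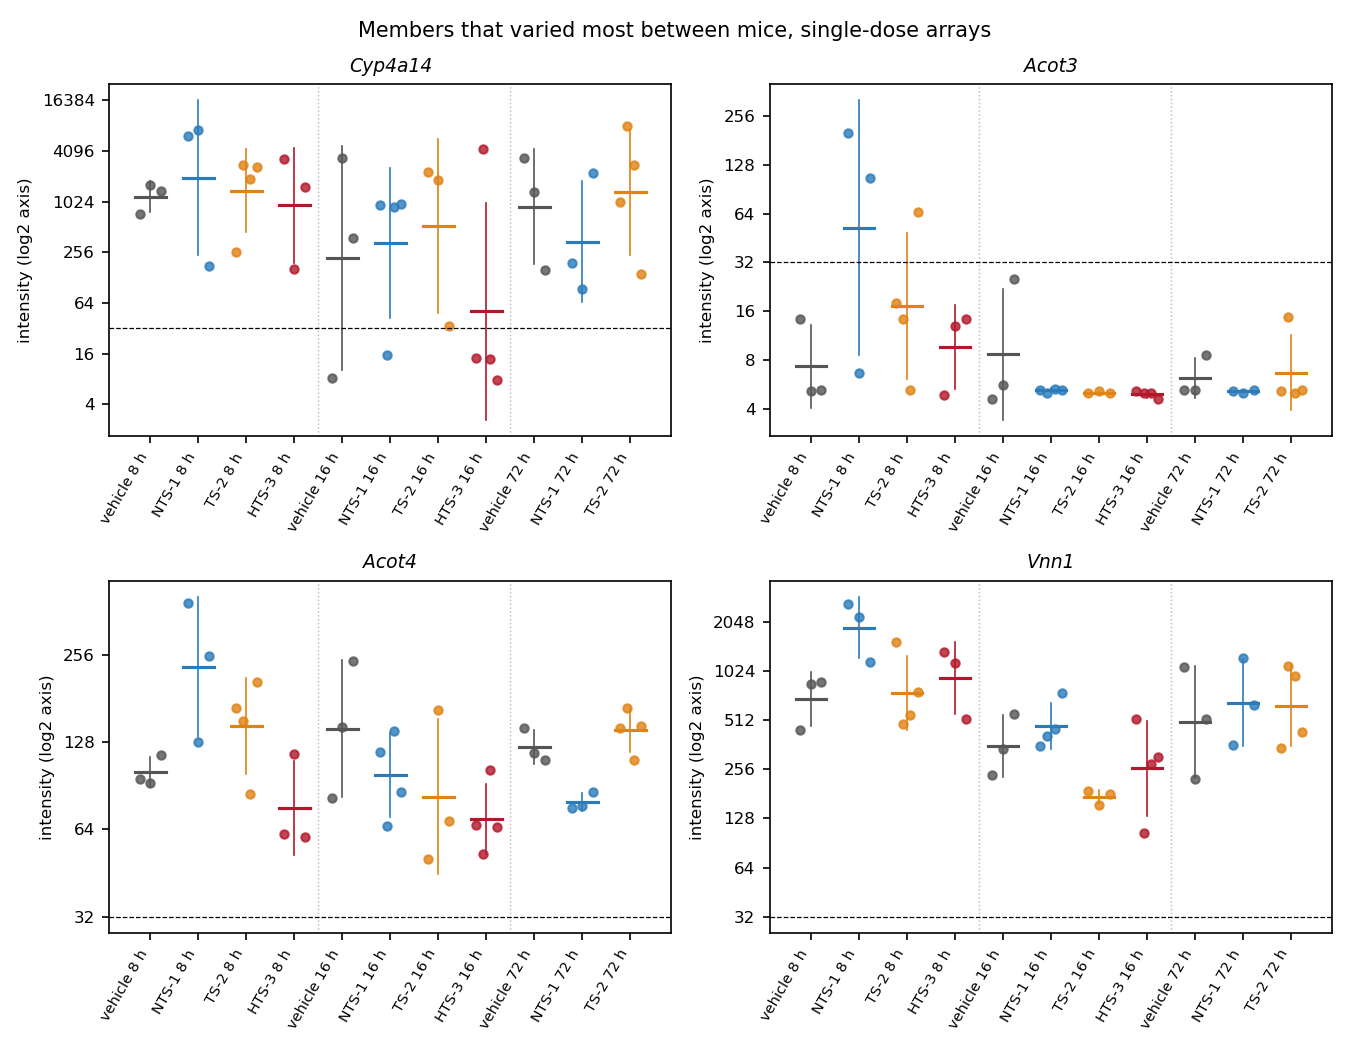
Intensity (log2 axis) of Cyp4a14, Acot3, Acot4 and Vnn1 in the single-dose study, each point 1 mouse, horizontal bars the mean of log2 values and vertical lines its SD, the dashed line an intensity of 32. Cyp4a14 mice of 1 group span up to 552-fold, and Acot3 is above 32 in 3 mice.

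Some enzymes of mitochondrial beta-oxidation varied little, and others, such as Hadha, did not: it ranged 4.86-fold over the single-dose mice, with an SD at percentile 83.7 of all genes. Hadh, which oxidises 3-hydroxyacyl-CoA, ranged over all 37 single-dose mice from 35276 to 50321 and over the 2-week mice from 13947 to 17968. Decr1 ranged from 11850 to 16865 and Acadm from 9315 to 13778 over the single-dose mice, the dosed mice included. Acadl, Acaa2 and Slc25a20 also stayed within a range of 1.58-fold from lowest to highest mouse. Vnn1 ranged over 25.4-fold and Pdk4 over 36.2-fold in the same study, the latter with sampling time.

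**Figure D5:**
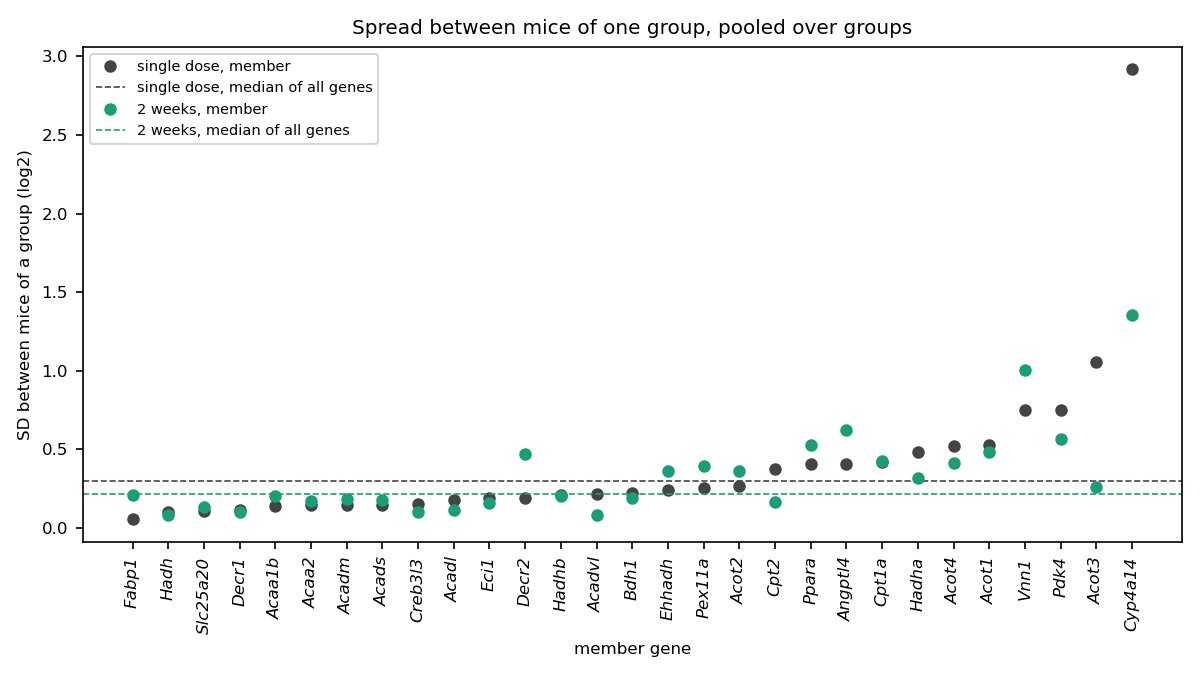
SD between mice of a group on the log2 scale, pooled over the groups of each study, for the 29 measured members (x axis, in order of the single-dose SD), with dashed lines at the median of all genes tested. Cyp4a14 lies at 2.92 in the single-dose and 1.36 in the 2-week study, and Hadh at 0.10 and 0.08. Fabp1 is lowest in the single-dose study, at 0.06, and near the median of all genes in the 2-week study, at 0.21.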

How the data were processed

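Liver RNA of 56 mice was measured on Affymetrix arrays of 45101 probe sets. Per the submitters' processing notes the authors used RMA, with no version named there. Linear intensity was deposited, judged from the values themselves, and log2 was taken here from the deposited intensity. The 2 studies have different lowest values, 4.56 in the 37 single-dose arrays and 6.10 to 6.92 in the 19 others, and were fitted apart. On single-dose arrays 44.1% to 47.3% of probe sets sat at that floor.

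A gene took 1 probe set among those annotated to 1 gene, the one with the highest mean log2 intensity over the arrays of both studies together. It was not always the brightest within a study. Ppara, Hadhb and Fabp1 had a brighter set in the 2-week study that was not used, and Cpt1a and Pex11a had one in the single-dose study. Of the probe sets 34958 had 1 gene, 932 several and 9211 none. Groups were compared with limma 3.58.1 in R 4.3.3, 1 model over all groups of a study, with 26 and 16 residual degrees of freedom and Benjamini-Hochberg adjustment. In all 24 comparisons were made, and the fit was tested on simulated data for 3 of them. Genes named are all members past a test, the 3 furthest where none passed, and up to 6 other pathway genes per comparison. Other members that did not pass are named to account for their role, chosen after their values were seen, and Acot3 is left out of the single-dose rankings because nearly all its values are under 32. Members and lists were chosen with earlier results of these data known. Replicate numbers were not used to pair the mice. In none of 21 comparisons did every pair of same-numbered mice correlate above 0.1, with correlations from -0.48 to 0.46. TS-2 against vehicle at 8 h came near, with 3 pairs from 0.095 to 0.41. Such a cut on few mice cannot show that no pairing exists. The number of arrays limits the precision. Alternatives were another probe set rule, no filter, quantile normalization, array weights, the compared groups alone, the replicate number as a block, other vehicle sets, another label for 1 mouse, and leaving out each mouse.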

Additional observations from a re-analysis of the deposited data

Results flagged for a closer look

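In 203 tests of a member within a group of 4 or more mice, 21 had 1 mouse far from the rest of its group. The cut is meant to give about 1 in 20 by chance in independent tests of normal values. These tests share mice, so the count cannot be read against that rate. HTS-3 mouse 4 at 16 h was highest for Cpt2 (12535) and Hadha (6418) and lowest for Slc25a20 (6656), Pex11a (1651) and Eci1 (6681). That mouse had the lowest 3′ to 5′ ratio of Actb (1.15) and Gapdh (-0.12) of the single-dose arrays, and its part was not tested. Mouse 2 of the same group was highest for Cyp4a14 (4303). NTS-1 mouse 2 at 16 h was lowest for Cyp4a14 (15.4) and Pdk4 (51.1), and NTS-1 mouse 3 was lowest for Ehhadh (9509).

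With TS-2 at 8 h, mouse 1 was lowest for Cyp4a14 (258), and mouse 2 was highest for Acads (2837) and Eci1 (8522). TS-2 mouse 2 at 72 h was highest for Acot3 (14.8), a value below 32. Among vehicle mice at 2 weeks, mouse 2 was lowest for Acadm (5818), Acadl (3134) and Decr2 (934), and mouse 7 was lowest for Fabp1 (14951) and Hadhb (1890) and highest for Acads (3004). With NTS-1 at 2 weeks, mouse 4 was highest for Acot1 (392) and mouse 1 for Slc25a20 (4010). No member passed a test of a gapmer's effect between times.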

How the results depend on the processing

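Counts of members past the test kept within 1.5 times of the reported count except as follows. Array weights gave 2 for TS-2 at 16 h, 3 for HTS-3 at 16 h, 6 from 8 to 16 h and 2 from 8 to 72 h in vehicle mice, 5 for NTS-1 at 2 weeks and 2 for effects between times. Fitting the compared groups alone gave 0 for HTS-3 at 16 h, 1 from 8 to 16 h in vehicle mice and 3 for gapmers against one another (8 as reported). Averaging all probe sets of a gene gave 2 for HTS-3 at 16 h. Vehicle mice 6 to 10 alone gave 3 for TS-2 at 2 weeks (9 as reported). The replicate number as a block gave 5 for gapmers against one another and changed no other count by over 1.5 times. With it 6 members passed with TS-2 at 2 weeks, 5 of the 9 reported among them. The array weights of a fit stopped short of their convergence tolerance. The cause was not tested.

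Leaving out 1 mouse gave 0 to 1 for NTS-1 at 8 h, 1 to 3 for HTS-3 at 16 h, 1 to 2 from 8 to 16 h in vehicle mice, 4 to 10 for gapmers against one another, 0 to 1 for effects between times, 0 to 1 for NTS-1 at 2 weeks and 7 to 10 for TS-2 at 2 weeks. Of 21 single member calls, 4 held under every alternative: Pdk4 from 8 to 72 h, and Pex11a, Cpt2 and Acads with TS-2 at 2 weeks. No member changed direction. Of 51 values of the 3 furthest members in comparisons with no call, Acot3 among them, 43 passed under no alternative. Groups of 3 or 4 mice and the floor of the single-dose arrays limit the precision for dim members such as Acot3.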
